A study of Mus musculus with 8 samples.

Results

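The genes of cholesterol synthesis, sterol uptake and sterol efflux were examined in ROR-γt-/- mouse Th17 cells reconstituted with WT-ROR-γt (n = 4 samples) or with K187R-ROR-γt (n = 4 samples). A list of 34 gene names was matched to the gene symbols of the expression table, which held 22829 genes. All 34 names were found, and 33 were kept, those that averaged 10 or more normalized counts over the 8 samples. The name left out was Ch25h, and the kept gene nearest to the limit was Cyp27a1.

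Cholesterol is built from acetyl-CoA through mevalonate, then squalene, then a series of sterols. When sterols are scarce, SCAP carries the SREBP transcription factors out of the endoplasmic reticulum and they activate the synthesis genes, while INSIG proteins hold them back when sterols are plentiful. When oxysterols accumulate, the LXR nuclear receptors activate the genes that export cholesterol. ROR-γt, the nuclear receptor that directs Th17 differentiation, itself binds sterols of this pathway as ligands.

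Both groups lacked endogenous ROR-γt and received a V5-tagged form of it by lentivirus, in CD4+ T cells purified from spleen with magnetic beads and cultured under Th17-inducing conditions. In K187R-ROR-γt the lysine that accepts SUMO, a small protein attached to other proteins, is replaced by arginine. The age and sex of the animals were not given in the sources used here. The sample labels number both groups from 1 to 4 without naming an animal or a culture, while the description of the series speaks of mice, so the p-values measure only the spread between these samples. In such whole-culture samples, fewer cells of a type and less RNA per cell cannot be told apart.

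The value of each gene is a normalized count, its reads after division by the size factor of the sample. Between 52456804 and 74676721 reads were counted on genes per sample. Markers of CD4 T cells (5 of 5 detected) summed to 123724 to 140123 normalized counts in WT and to 130083 to 144510 in K187R. Clustering on the genes outside the list was cut at 3 sets, a number set by choice, and these sets did not follow the groups. WT replicates 1 and 3 grouped with K187R replicate 1 (set 1), K187R replicates 2 and 3 grouped with WT replicate 2 (set 2), and both replicates 4 formed set 3. Xist, the RNA made by the inactive X chromosome of female cells, was at 13564 to 17373 normalized counts in the 3 samples of set 2 (1 WT, 2 K187R) and at 3.56 to 23.7 in the other 5, and its part in the results was not tested.

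Groups were compared with limma on log2(normalized count + 1), and fold changes are given as the mean of K187R less that of WT on that scale, with SE for standard error. None of the 33 genes had an adjusted p under 0.05, as was the case for all 16982 genes tested (0.0% called). At an unadjusted p under 0.05 there were 3 of 33, against 4.39% of all genes. These were the sterol exporters Abcg1 and Abca1, lower in K187R (2 of 33, against 1.64% of all genes in that direction), and Cyp27a1, higher in K187R (1 of 33, against 2.75%). The groups did not overlap for 2 of 33, Abcg1 and Insig2, both lower in K187R, against 2.46% of all genes in either direction and 0.989% in that one. Abcg1 and Cyp27a1 were the 2 of 33 with a log2 fold change of 0.5 or more in size, against 9.31% of all genes. DESeq2, run on the recovered reads, called Abcg1 alone among the 33, against 0.206% of all genes. With the sample set as a term, limma called 0 of 33 against 0.00589% of all genes, and DESeq2 called Abcg1 alone against 0.836%. The quasi-likelihood test of edgeR called none of the 33 and 0.0% of all genes, with 3 of the 33 and 4.29% of all genes at an unadjusted p under 0.05.

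**Figure D1:**
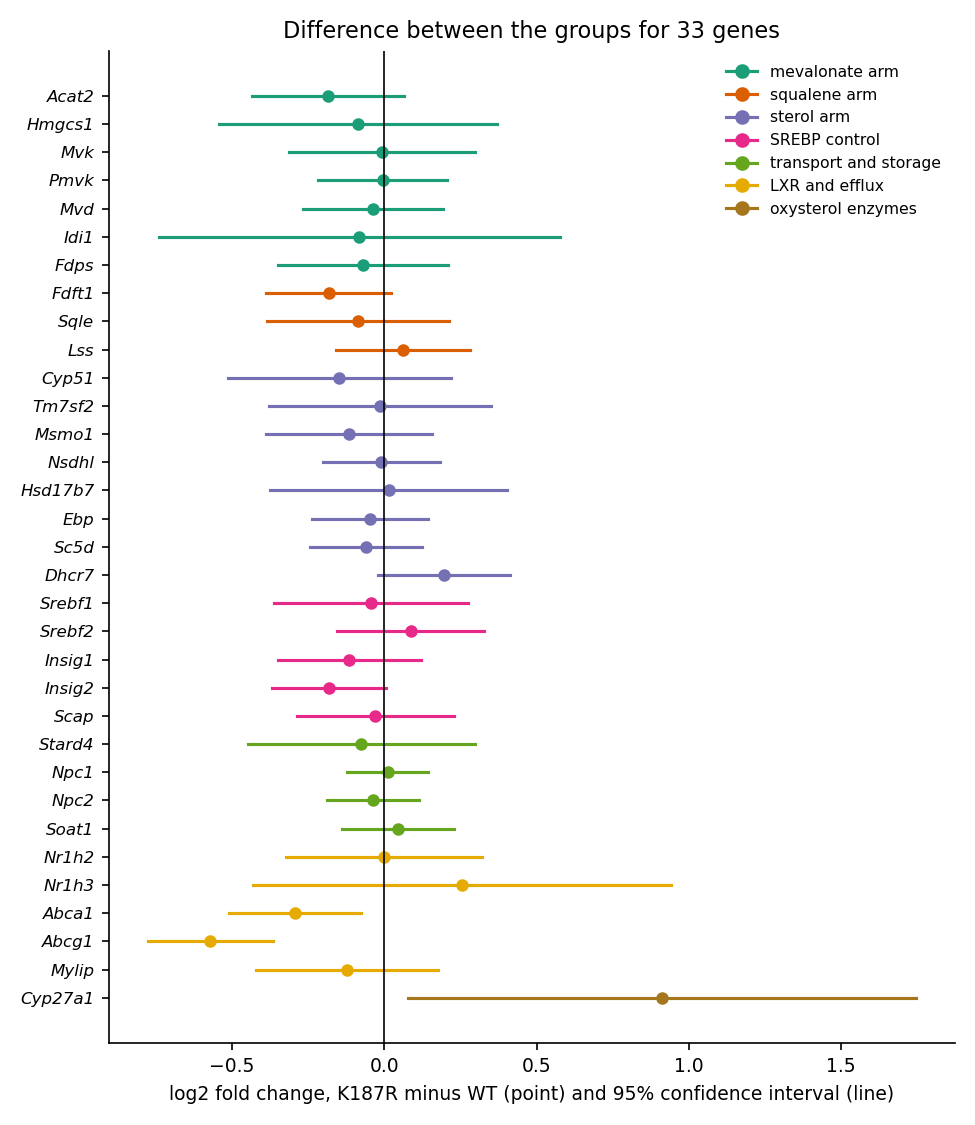
Log2 fold change of each of the 33 genes (point, K187R minus WT, n = 4 each) with its 95% confidence interval from limma (line), coloured by role. The intervals of Abcg1 (-0.78 to -0.37), Abca1 (-0.51 to -0.08) and Cyp27a1 (0.08 to 1.75) do not include 0 before adjustment, and the other 30 include it.

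The proximal promoters of 3 members are shown because they carry a match to a motif of the transcription factors that control these genes: Abca1 and Srebf1 for LXR, and Hmgcs1 for SREBP. Each is the 250 bases before a transcription start in RefSeq (GRCm38.p6), 5′ to 3′ on the strand of the gene, with the match in capitals. The Abca1 window is chr4:53159896-53160145 (minus strand), that of Srebf1 is chr11:60210472-60210721 (minus strand), and that of Hmgcs1 is chr13:119690101-119690350 (plus strand). The Srebf1 window belongs to a start inside the gene, and the match was in 1 of the 3 Srebf1 entries, while Abca1 and Hmgcs1 have 1 entry each.
Abca1: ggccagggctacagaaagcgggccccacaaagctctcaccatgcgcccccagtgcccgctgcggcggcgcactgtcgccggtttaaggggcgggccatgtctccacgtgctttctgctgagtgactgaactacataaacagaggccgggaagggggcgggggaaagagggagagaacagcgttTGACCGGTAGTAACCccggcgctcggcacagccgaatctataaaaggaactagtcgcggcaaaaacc
Srebf1: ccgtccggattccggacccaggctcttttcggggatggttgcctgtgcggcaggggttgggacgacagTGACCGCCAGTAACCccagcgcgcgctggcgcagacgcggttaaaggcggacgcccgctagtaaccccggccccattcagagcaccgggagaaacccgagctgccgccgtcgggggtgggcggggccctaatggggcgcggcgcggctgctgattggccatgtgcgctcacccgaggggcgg
Hmgcs1: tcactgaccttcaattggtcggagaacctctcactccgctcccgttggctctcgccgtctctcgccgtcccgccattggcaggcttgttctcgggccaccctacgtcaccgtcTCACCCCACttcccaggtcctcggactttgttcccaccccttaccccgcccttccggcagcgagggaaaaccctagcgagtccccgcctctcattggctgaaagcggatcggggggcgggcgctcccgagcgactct

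The LXR motif searched was a relaxed direct repeat, 2 copies of GGTNA in the same orientation with 5 bases between them, on either strand. It lay 52 bases before the start in Abca1 and 167 bases before it in Srebf1, and both matches were on the opposite strand. Of the 27 members with a promoter entry, these 2 held it (7.41%), against 0.707% of the 27025 genes with an entry. The strict repeat, 2 copies of AGGTCA with 4 bases between them, was found in 0 of the 27 members and in 5 of 32851 promoters, and any match to it is also a match to the relaxed form. The SREBP motif TCACNCCAC on either strand was found in 1 of 27 members (3.70%), Hmgcs1, 128 bases before the start, against 1.22% of genes. The CCAAT box, which often stands near SREBP sites, was found in 22 of 27 members (81.5%), against 37.5% of genes. The shares of genes are over all with an entry, expressed here or not, while the members had passed the limit on mean count. The part of that difference in these contrasts was not tested. Abcg1, Fdps, Fdft1, Sqle, Stard4 and Npc1 were without an entry. The LXR, SREBP and CCAAT matches do not overlap each other in these 3 windows. They were chosen with the sequences in view, and a match is a description of the letters.

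Abcg1 (ENSMUSG00000024030, chromosome 17 of GRCm38, 31057675 to 31117988, plus strand), which exports cholesterol to high-density lipoprotein, had the smallest p-value of the list. Its normalized counts were 5765, 5264, 6140 and 5288 in WT replicates 1 to 4 and 3318, 3653, 4210 and 3946 in K187R replicates 1 to 4. Every K187R sample was below every WT sample. The WT mean was 5614 ± 420 and the K187R mean 3782 ± 384 (SD, n = 4 each), 32.6% lower, with a log2 fold change of -0.57 (SE 0.0913). The unadjusted p of 0.000121 was rank 5 of the 16982 genes, and the adjusted p was 0.344 from limma. The exact two-sided permutation p was 0.0286, the smallest that 4 samples against 4 allow. The adjusted p was 3.15e-05 from DESeq2 and 0.402 from edgeR. Within the sets of samples the log2 difference in Abcg1 came to -0.84 (set 1), -0.42 (set 2) and -0.42 (set 3).

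Abca1 (ENSMUSG00000015243, chromosome 4, 53030787 to 53159895, minus strand), the transporter that loads cholesterol onto apolipoprotein particles, had 2348, 2327, 2232 and 2127 normalized counts in WT and 2153, 1871, 1770 and 1612 in K187R. K187R replicate 1 was the only K187R sample above the lowest WT sample. The WT mean was 2258 ± 101 and the K187R mean 1851 ± 228 (SD, n = 4 each), 18.0% lower. The log2 fold change was -0.29 (limma, SE 0.0965, unadjusted p = 0.0133 and adjusted p = 0.921), with an exact two-sided permutation p of 0.0571. Within sets it came to -0.09 (set 1), -0.35 (set 2) and -0.40 (set 3).

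Macrophages and monocytes also express sterol exporters, and their markers were present in every sample. All 12 of 12 markers were detected with none at 0, and all 12 had a higher mean in K187R. At an unadjusted p under 0.05 in limma there were 0 of 12, against 4.39% of all genes. They summed to 21356, 51743, 21757 and 62928 normalized counts in WT and to 36446, 45571, 49587 and 66046 in K187R. Lyz2 alone made up 77.3% to 87.5% of the sum, and the other 11 markers summed to 4331, 9501, 4727 and 8406 in WT and to 6292, 10116, 11269 and 8268 in K187R. The part of these cells in the Abcg1 and Abca1 values was not tested. B cell markers (5 of 5 detected) summed to 300.6 to 1220 in WT and to 356.5 to 1596 in K187R, dendritic cell markers to 159.5 to 536.5 and 208.0 to 682.2, CD8 T cell markers to 402.8 to 1025 and 387.2 to 1141, and NK cell markers to 1.74 to 24.0 and 5.33 to 30.5. The log2 fold change was also above 0 for 5 of 5 CD4 T cell, 5 of 5 B cell, 2 of 2 dendritic cell and 1 of 1 NK cell markers tested. It was above 0 for 0 of 2 CD8 T cell markers, and below 0 for 51.6% of all genes.

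**Figure D2:**
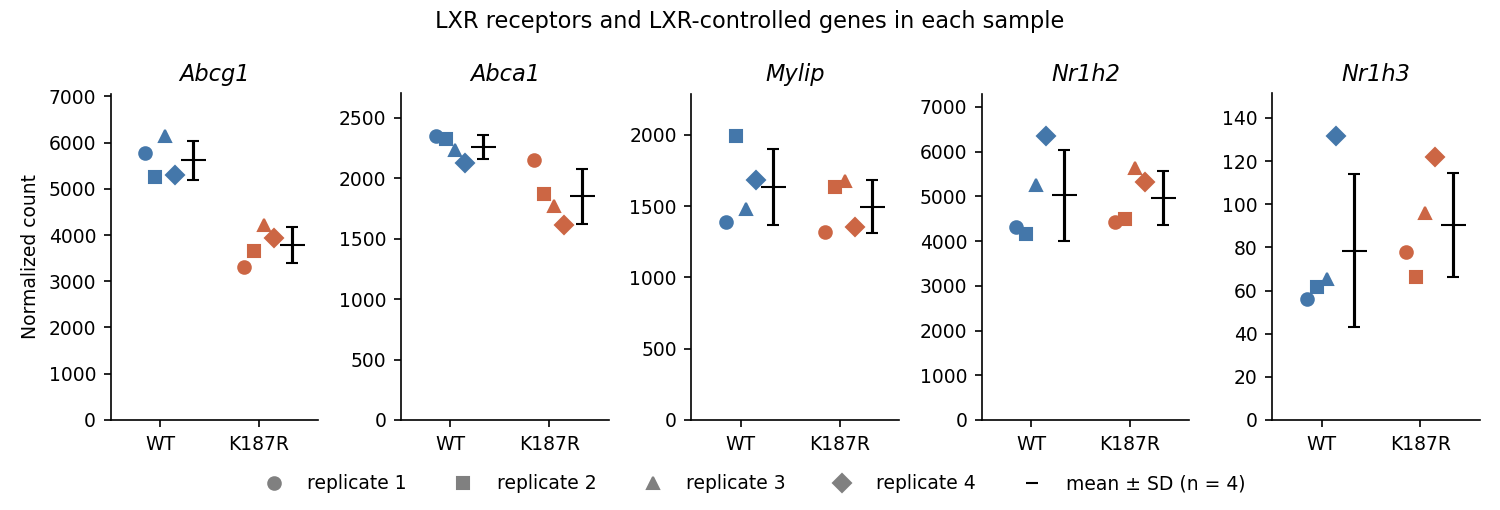
Normalized counts of the LXR receptors Nr1h2 and Nr1h3 and of the LXR-controlled genes Abcg1, Abca1 and Mylip in each sample (points), with mean ± SD (n = 4) beside them. The K187R points of Abcg1 (3318 to 4210) all lie below the WT points (5264 to 6140), while the groups overlap for the other genes.

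The LXR receptors themselves did not differ beyond the spread between samples. Nr1h2, encoding LXR-β, had 4317, 4161, 5258 and 6349 normalized counts in WT and 4436, 4487, 5625 and 5330 in K187R. Its means were 5021 ± 1009 and 4970 ± 599 (SD, n = 4 each), and the 95% confidence interval of the log2 fold change ran from -0.32 to 0.32 (adjusted p = 0.999 from limma). Nr1h3, encoding LXR-α, was at a lower level, with 55.8, 61.5, 65.1 and 131.6 normalized counts in WT and 77.9, 66.2, 95.9 and 121.8 in K187R. Both replicates 4 had the highest Nr1h3 of their group, and the log2 fold change was 0.25 (limma, SE 0.306, adjusted p = 0.928). Mylip, an LXR-controlled ubiquitin ligase that promotes degradation of lipoprotein receptors, had 1388, 1991, 1483 and 1681 in WT and 1321, 1632, 1676 and 1352 in K187R. Its groups overlapped, with a log2 fold change of -0.12 (limma, SE 0.133, adjusted p = 0.924). The 5 LXR and efflux genes ran from -0.57 (Abcg1) to 0.25 (Nr1h3) in log2 fold change. Their median was -0.12, the value of Mylip, beside -0.01 over all genes tested.

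Among the genes that control SREBP, Insig2 was the member whose groups did not overlap. Insig2 (ENSMUSG00000003721, chromosome 1, 121304353 to 121332589, minus strand), a sterol-dependent anchor of SCAP, had 1812, 1708, 1642 and 1644 normalized counts in WT and 1602, 1447, 1360 and 1602 in K187R. The lowest WT sample and the highest K187R sample were 40.2 normalized counts apart. The mean was 1702 ± 79.7 in WT and 1503 ± 120 in K187R (SD, n = 4 each). The log2 fold change was -0.18 (limma, SE 0.0837, unadjusted p = 0.0567 and adjusted p = 0.921). The exact two-sided permutation p of 0.0286 follows from the lack of overlap, which always gives the smallest value possible here.

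Insig1, the other INSIG and itself an SREBP target, had 4774, 4235, 4844 and 3586 in WT and 4086, 4139, 4167 and 3619 in K187R. Replicate 4 was the lowest sample of both groups, and the log2 fold change was -0.12 (95% confidence interval -0.35 to 0.12). Srebf1, encoding SREBP-1, had 5183, 4690, 6285 and 7089 in WT and 5142, 4975, 6684 and 5605 in K187R. Its log2 fold change was -0.04 (SE 0.142), with wide overlap of the groups. Srebf2, encoding the SREBP that mainly drives cholesterol synthesis, had 15416, 14911, 18737 and 18756 in WT and 17453, 16404, 20794 and 17229 in K187R. The groups overlapped and the log2 fold change was 0.09 (95% confidence interval -0.15 to 0.33). Scap, the SREBP escort, had a log2 fold change of -0.03. Among these 4 genes the adjusted p from limma was 0.922 to 0.979.

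None of the 18 enzymes of synthesis had an unadjusted p under 0.05, against 4.39% of all genes. Several had their lowest values in both replicates 4. The log2 fold change was below 0 for 15 of 18 and for 25 of all 33 members, against 51.6% of all genes, with a median of -0.05 for the enzymes and -0.04 for the members. These counts changed with the samples used: without WT replicate 3 they were 10 of 18 and 18 of 33. WT replicate 4 was the lowest of the 8 samples for 10 of 33 members (30.3%), against 19.0% of all genes. For 6 of the 18 (Hmgcs1, Idi1, Sqle, Cyp51, Msmo1 and Hsd17b7), and for Insig1 and Stard4, the lowest 2 of the 8 samples were both replicates 4. This makes 8 of 33 members (24.2%), against 12.2% of all genes.

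**Figure D3:**
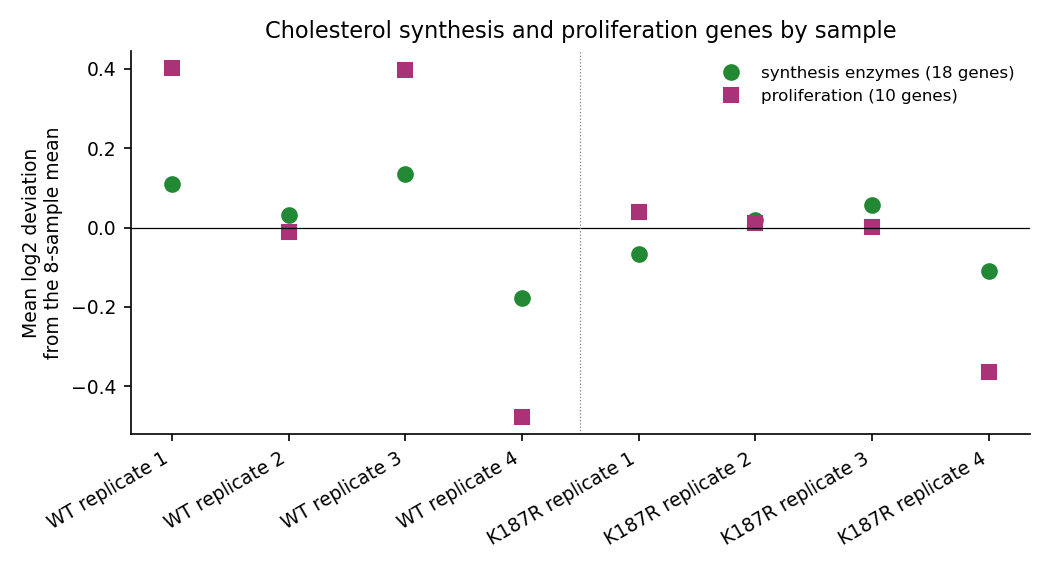
Mean deviation of log2(normalized count + 1) from each gene's mean over the 8 samples, for the 18 synthesis enzymes (circles) and 10 proliferation genes (squares), by sample. Both lists were lowest in WT replicate 4 (-0.18 and -0.48) and in K187R replicate 4 (-0.11 and -0.36).

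In the mevalonate arm all 7 genes had a log2 fold change below 0, against 51.6% of all genes. It was -0.18 for Acat2, the cytosolic thiolase of the first step. It lay between -0.04 and -0.01 for Mvd, Mvk and Pmvk, which phosphorylate and decarboxylate mevalonate. Within set 3, of 1 sample per group, all 7 but Pmvk were higher in K187R. Hmgcs1 (ENSMUSG00000093930, chromosome 13, 119690379 to 119708260, plus strand), the synthase that makes HMG-CoA, had 8843, 8518, 7512 and 4756 normalized counts in WT and 6754, 8373, 6992 and 5332 in K187R. Replicate 4 was the lowest of each group and the groups overlapped, with a log2 fold change of -0.09 (95% confidence interval -0.54 to 0.37, adjusted p = 0.961 from limma). Idi1, the isomerase that sets the balance of the isoprenoid units, had 2079, 2083, 1629 and 860.1 in WT and 1656, 1963, 1427 and 1040 in K187R. It had the widest spread of the 18 enzymes, with a highest sample 2.42 times the lowest and a log2 fold change of -0.08 (95% confidence interval -0.74 to 0.58). Fdps, which makes farnesyl diphosphate, had a log2 fold change of -0.07, and 26.7% of its exonic bases are shared with Gm43738.

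In the squalene arm, Fdft1, the squalene synthase, had 3736, 3335, 4009 and 3086 normalized counts in WT and 2930, 3132, 3236 and 3125 in K187R. One WT sample, replicate 4, lay within the K187R range, and the log2 fold change was -0.18 (unadjusted p = 0.0745, adjusted p = 0.921 from limma). Of its exonic bases 18.3% overlap Ctsb, and whether the counting used the strand is not given in the sources used here. Sqle, the squalene epoxidase, had 4035, 3681, 3931 and 2730 in WT and 3401, 3566, 3594 and 2870 in K187R. Both replicates 4 were again lowest, and the log2 fold change was -0.09 (SE 0.133). Lss, the lanosterol synthase, had a log2 fold change of 0.06.

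In the sterol arm, 6 of 8 genes had a log2 fold change below 0, against 51.6% of all genes. Cyp51 (ENSMUSG00000001467, chromosome 5, 4081145 to 4104746, minus strand), the lanosterol demethylase, had 10743, 9036, 10061 and 6197 normalized counts in WT and 8475, 8716, 7888 and 6884 in K187R. The groups overlapped, with a log2 fold change of -0.15 (95% confidence interval -0.51 to 0.22, adjusted p = 0.925 from limma). Dhcr7, the reductase that yields cholesterol, had its highest sample in K187R, with 1321, 1362, 1536 and 1563 in WT and 1554, 1531, 1872 and 1668 in K187R. Its log2 fold change was 0.20 (limma, unadjusted p = 0.0725 and adjusted p = 0.921, permutation p = 0.143 in the exact test), the largest positive value among the 18 enzymes. The other log2 fold changes were -0.12 for the methylsterol oxidase Msmo1, -0.06 for the desaturase Sc5d, -0.05 for the isomerase Ebp, -0.01 for the reductase Tm7sf2, -0.01 for Nsdhl, which removes methyl groups, and 0.01 for the ketosteroid reductase Hsd17b7.

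Genes of the cell cycle were set beside the synthesis enzymes. The 10 proliferation genes summed to 169771, 123502, 166263 and 93702 normalized counts in WT replicates 1 to 4 and to 130354, 126038, 122517 and 100671 in K187R. The log2 fold change was below 0 for 9 of the 10, against 51.6% of all genes. At an unadjusted p under 0.05 in limma there were 0 of 10, against 4.39% of all genes. For 8 of the 10 (Mki67, Top2a, Ccnb1, Cdk1, Pcna, Mcm3, Mcm4 and Mcm5) both replicates 4 were the lowest 2 samples, against 12.2% of all genes. The synthesis enzymes deviated by 0.11, 0.03, 0.14 and -0.18 on the log2 scale in WT replicates 1 to 4 and by -0.07, 0.02, 0.06 and -0.11 in K187R, as the plot of both lists by sample shows. The part of proliferation in the synthesis values was not tested.

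**Figure D4:**
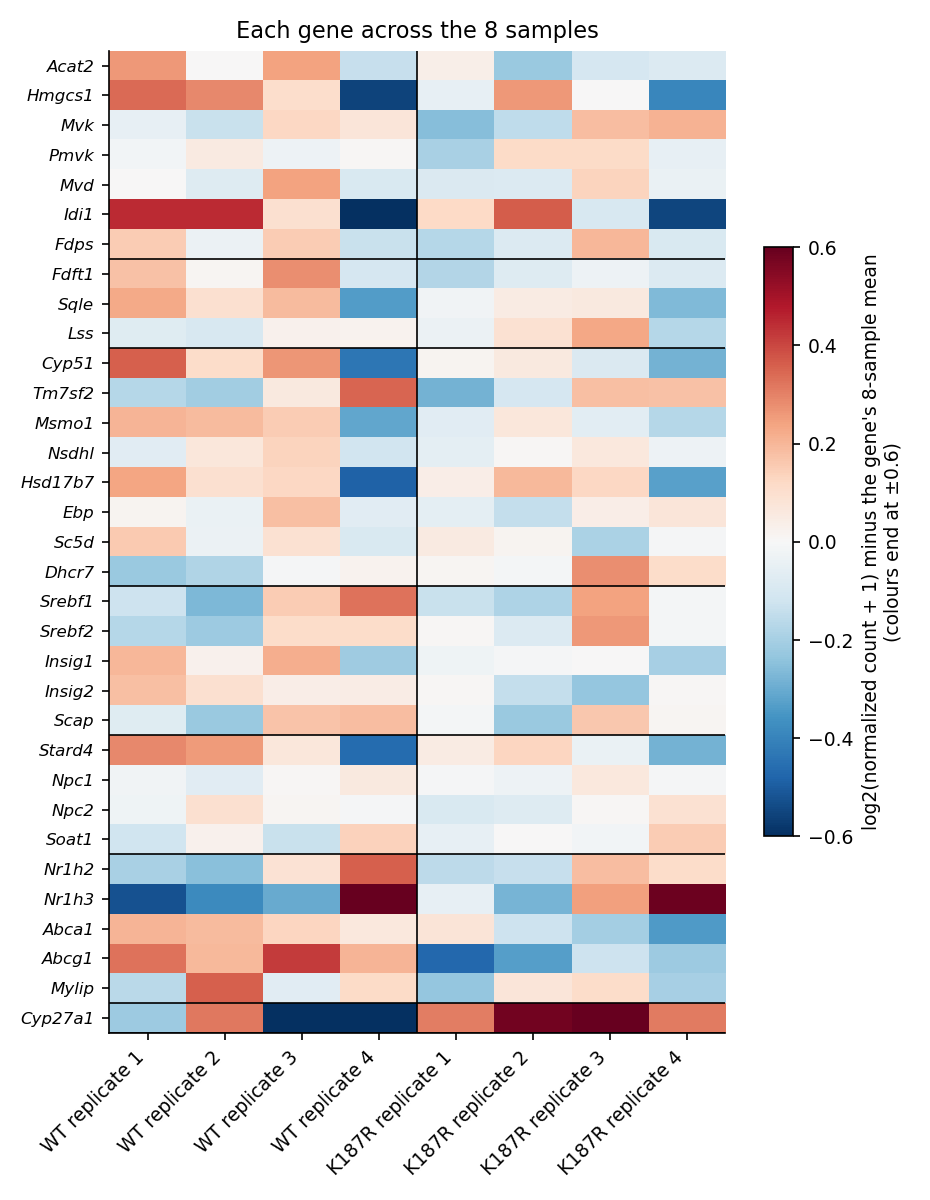
Deviation of log2(normalized count + 1) from the gene's mean over the 8 samples for the 33 genes (rows, separated by role) in the 8 samples (columns, WT then K187R), with colours ending at ±0.6. Abcg1 is above its mean in all 4 WT samples and below it in all 4 K187R samples, and Hmgcs1, Idi1, Cyp51 and Stard4 are at their lowest in both replicates 4.

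Of the 4 transport and storage genes, all but Stard4 varied little. Npc1, which moves cholesterol out of lysosomes, had 8426, 8149, 8585 and 8889 normalized counts in WT and 8502, 8371, 8919 and 8491 in K187R. Its highest sample was 1.09 times its lowest, the smallest spread of the 33 genes, and its log2 fold change was 0.01 (95% confidence interval -0.12 to 0.14). Npc2, its soluble partner, ranged from 20533 to 23384 with a log2 fold change of -0.04. Soat1, which esterifies cholesterol for storage, had 7503, 8282, 7422 and 8964 in WT and 7874, 8168, 8059 and 9052 in K187R, a log2 fold change of 0.05 (SE 0.082). Stard4, a cytosolic sterol carrier and SREBP target, differed more between samples, with 4511, 4409, 3867 and 2683 in WT and 3816, 4033, 3589 and 3028 in K187R. Its low samples were both replicates 4, as for the synthesis enzymes named above, and its log2 fold change was -0.08 (SE 0.166).

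The enzymes that make oxysterols were close to the detection limit. Cyp27a1, the mitochondrial sterol hydroxylase, had 8.32, 12.5, 3.38 and 6.10 normalized counts in WT and 12.4, 15.2, 15.8 and 12.4 in K187R, where 3 reads correspond to 2.54 to 3.56. WT replicate 2 overlapped the K187R samples. The mean was 7.57 ± 3.85 in WT and 14.0 ± 1.78 in K187R (SD, n = 4 each), which gives a log2 fold change of 0.91 (limma, SE 0.371, unadjusted p = 0.0352 and adjusted p = 0.921, exact two-sided permutation p = 0.0857). Ch25h, which makes the oxysterol that macrophages release, was below the limit for testing, with 8.32, 2.88, 3.38 and 0.871 in WT and 2.26, 5.42, 10.5 and 5.33 in K187R.

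Compared per length, the members covered a wide range of levels. In WT the mean normalized count per kilobase of exon was 4082 for Npc2, 2360 for Srebf2, 2041 for Cyp51 and 1612 for Hmgcs1. Abcg1 was at 769 per kilobase in WT and 518 in K187R, and Abca1 at 218 and 179. Nr1h3 was at 31.2 and Cyp27a1 at 3.49 per kilobase in WT, the lowest of the 33. The median ratio of the highest to the lowest sample was 1.40 for the members and 1.55 for all genes tested.

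**Figure D5:**
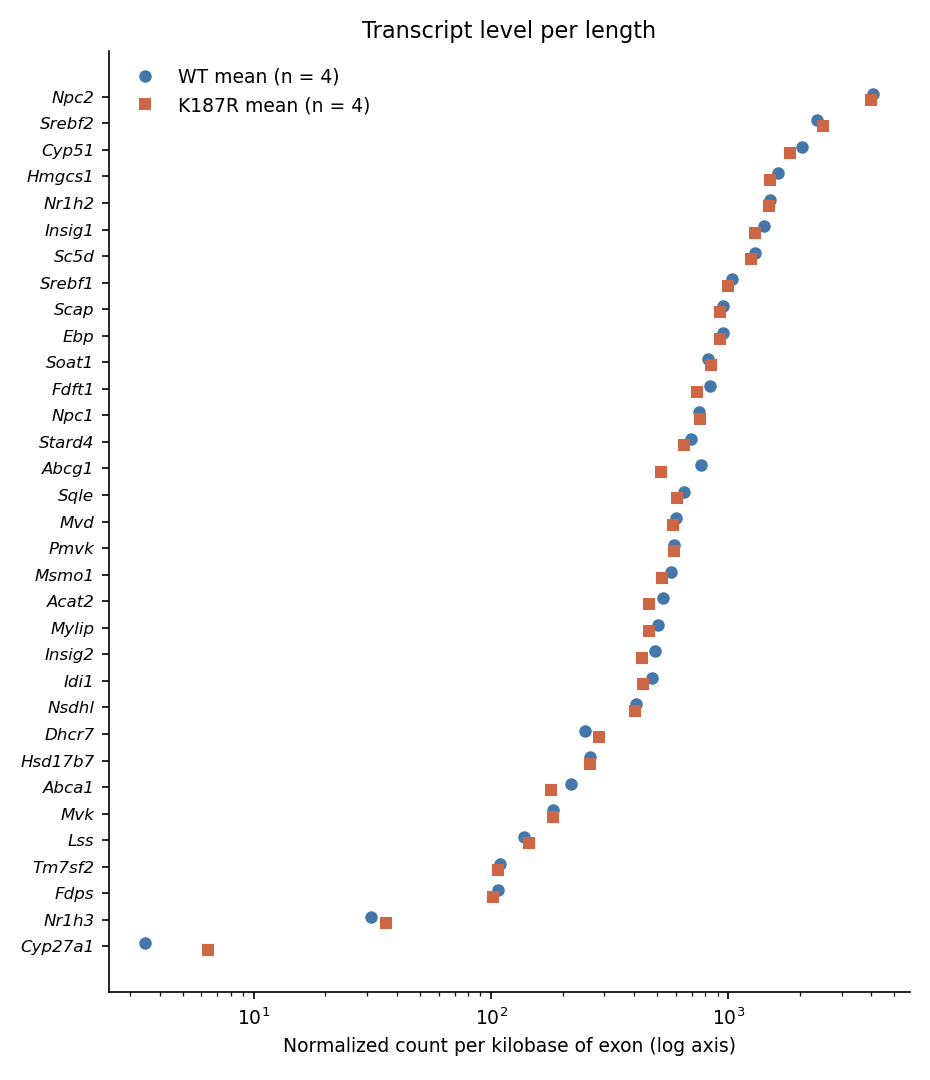
Mean normalized count per kilobase of exon (log axis) of the 33 genes in WT (circles) and K187R (squares), n = 4 each, ordered by level. Levels run from 3.49 for Cyp27a1 to 4082 for Npc2 in WT, and the pair of symbols of Abcg1 (769 and 518) is farther apart than those of most genes.

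A further 30 genes of sterol handling were examined, among them SREBP proteases, INSIG-associated ubiquitin ligases, sterol carriers, lipoprotein receptors and the RXR partners of LXR. Of these, 28 had a mean of at least 10, and Cyp7b1 and Cyp46a1 did not. None of the 28 passed in limma, and 0 had an unadjusted p under 0.05, against 4.39% of all genes (1 in DESeq2, against 4.96%). Their median log2 fold change was -0.01. Of the 28, 1 had a log2 fold change of 0.5 or more in size, against 9.31% of all genes. It was Abcg4, named after its values were seen. Its mean was 9.67 ± 7.31 normalized counts in WT and 15.6 ± 3.57 in K187R (SD, n = 4 each). Its groups overlapped, with a log2 fold change of 0.85 (limma, SE 0.462, unadjusted p = 0.0968 and adjusted p = 0.921). That direction is opposite to the one of Abcg1 and Abca1. The groups did not overlap for 1 of the 28, Lrp8, a lipoprotein receptor, which was named after its values were seen. It had 1377, 1369, 1440 and 1457 normalized counts in WT and 1556, 1654, 1661 and 1461 in K187R, a log2 fold change of 0.16 (adjusted p = 0.921 from limma), and higher non-overlapping genes made up 1.47% of all genes.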

How the data were processed

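RNA of 8 samples, 4 with WT-ROR-γt and 4 with K187R-ROR-γt, was sequenced as paired-end reads of 75 bases. The authors used Cutadapt for trimming, HiSat2 for alignment to GRCm38, featureCounts for counting on GENCODE M15 genes and DESeq2 for comparison. The library kit differs between the labels and the study's methods. The authors deposited, for each gene and sample, a signal equal to the read count over the sample's size factor. The share of values that were whole reads was 100% (tolerance 0.01 of a read), and size factors ranged from 0.842 to 1.18. Depth was 52456804 to 74676721 reads per sample. Confidence intervals are from limma and cover the spread between samples, and floors of 3 reads cover counting error only.

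The plan took the deposited values as normalized and not raw counts, and limma was chosen on that ground. As whole reads could be recovered, that ground does not set limma above the tests on counts. The limma fit (lmFit, eBayes with trend) used log2(normalized count + 1) over genes with a mean of at least 10, with Benjamini-Hochberg adjustment. Single genes were tested by exact two-sided permutation over all 70 regroupings. Recovered reads were used for edgeR's quasi-likelihood test (adjusted p over the same genes) and DESeq2. Also tried were a minimum mean of 50 or none, pseudocounts of 0.5 and 5, median centring, quantile normalization, no trend, the replicate number as a block, and each sample left out. The sample sets, edgeR and DESeq2 with the block, and leaving out a set were added after the data were seen. The fits were run on simulated data without sample sets and with larger planted changes than that of Abcg1. That run therefore does not gauge the calls made here. The members and gene lists were chosen with earlier results of these data known. By the rule for named genes, each member is named with its direction, and values in every sample are given for a fixed set and for members with an unadjusted p under 0.05 or without overlap. Fdft1, Dhcr7, Abcg4 and Lrp8 were added for their values. Coordinates and exon lengths are from GENCODE M21 on GRCm38, used in place of M15, and promoters from RefSeq. Some genes are not reported here. Statistics used Python 3.11.15 with pandas 2.3.3, scipy 1.17.1, matplotlib 3.10.9 and numpy 2.4.6, and R 4.3.3 with DESeq2 1.42.0, edgeR 4.0.16 and limma 3.58.1.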

Additional observations from a re-analysis of the deposited data

Results flagged for a closer look

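In 66 groups of 4 samples (33 genes, both groups), 3 samples lay far from the other 3 of their group by Dixon's criterion, where chance gives about 3.3. Msmo1 was at 2692 normalized counts in WT replicate 4, and the other WT samples were at 3723 to 3855. Insig1 was at 3619 in K187R replicate 4, and the other K187R samples were at 4086 to 4167. Nr1h3 was at 131.6 in WT replicate 4, and the other WT samples were at 55.8 to 65.1. All 3 samples are replicates 4.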

How the results depend on the processing

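Over 25 alternatives the log2 fold change of Abcg1 stayed between -0.66 and -0.51 and that of Abca1 between -0.37 and -0.23. Where 1 sample was left out, the adjusted p of Abcg1 ran from 0.165 to 0.9999 in limma. Of the 33 members, 16 kept their sign in every alternative. The number of all genes past the threshold was 35 in DESeq2 (18 higher, 17 lower), 0 in edgeR, 1 with the sample set in limma, 1 with it in edgeR, 142 with it in DESeq2 (104 higher, 38 lower), and 4 with set 3 left out. Leaving out 1 sample gave 0 to 4, the 4 without WT replicate 4. The number of members past the threshold was 1 in DESeq2 and 1 in DESeq2 with the sample set, and 0 to 0 with 1 sample left out. The cause of these differences was not tested. Members with a log2 fold change below 0 numbered 18 to 28 with 1 sample left out, and synthesis enzymes 10 to 17.

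The labels do not say what a shared replicate number means. The deviations of same-numbered samples correlated at 0.59, 0.66 and 0.63 for numbers 1, 2 and 4 and at -0.09 for number 3, and 6 of 8 samples correlated best with their own number. As number 3 did not pair its samples, the block is given as an alternative only. With the replicate block 0 genes passed in limma (2046 at an unadjusted p under 0.05), 0 in edgeR and 189 in DESeq2 (126 higher, 63 lower, 1.11% of all genes), and members numbered 0 in limma and 2 in DESeq2, Abca1 (adjusted p = 0.0466 from DESeq2) and Abcg1.

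Log2 fold changes near 0 changed sign in places. With quantile normalization Nr1h2 was 0.0154, with median centring Hsd17b7 was -0.0072 and Npc1 -0.0113. In edgeR Mvk was 0.0079 and Pmvk 0.0045, in DESeq2 Mvk was 0.0041, and in edgeR with the block Nr1h2 was 0.0030. With the sample set, Scap was 0.0012 in limma, 0.0027 in edgeR and 0.0025 in DESeq2. With set 2 left out, Hsd17b7 was -0.1027, Lss -0.0921, Npc1 -0.0227, Srebf2 -0.0184 and Npc2 0.0059. With set 3 left out, Nr1h2 was 0.0818, Srebf1 0.0541, Tm7sf2 0.0386, Scap 0.0183, Pmvk 0.0110 and Hsd17b7 -0.0345. With 1 sample left out, ranges that crossed 0 were -0.0778 to 0.0059 for Ebp, -0.2876 to 0.0272 for Hmgcs1, -0.1454 to 0.1252 for Hsd17b7, -0.3716 to 0.0876 for Idi1, -0.0059 to 0.1285 for Lss, -0.0875 to 0.0374 for Mvd, -0.0781 to 0.0761 for Mvk, -0.0106 to 0.0312 for Npc1, -0.0850 to 0.1181 for Nr1h2, -0.0501 to 0.0327 for Nsdhl, -0.0451 to 0.0573 for Pmvk, -0.1097 to 0.0390 for Scap, -0.1410 to 0.0577 for Srebf1, -0.2418 to 0.0080 for Stard4 and -0.0869 to 0.0998 for Tm7sf2. Cyp27a1 was not tested where the mean had to reach 50. Depth limits Cyp27a1 and Ch25h, which lie near the floor of 3 reads.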
